A study of Sus scrofa with 92 samples.

Results

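Apoptosis, the ordered death of single cells, is started either from death receptors at the cell surface or from the mitochondria, and the p53 protein switches on genes that hold the cell cycle, repair DNA or push a cell towards death. The proteins of the BCL2 family decide at the mitochondrial membrane whether cytochrome c is released, and in the liver the death receptor FAS is well known for its strong effect on hepatocytes, in which the signal of caspase 8 needs to be passed to the mitochondria by BID. The genes described here are 9 members of these routes, taken by symbol, with earlier results of these data known. They are BCL2L1 and MCL1, which protect cells from apoptosis, BAX and BID, which promote it, the receptor FAS and the initiator caspase CASP8, and the p53 targets CDKN1A, MDM2 and GADD45A. Of the 25322 pig Ensembl identifiers in the count table, 7 carried one of these symbols, and 6 had counts and were tested among 13667 genes. These were BCL2L1 (ENSSSCG00000007229), MCL1 (ENSSSCG00000006652), BID (ENSSSCG00000000769), FAS (ENSSSCG00000010448), CASP8 (ENSSSCG00000028157) and MDM2 (ENSSSCG00000000488). CDKN1A (ENSSSCG00000001565), which encodes the cell cycle inhibitor p21, had 0 counts in all 92 libraries, and for the libraries used a count of 0 allows up to 3 counts, or 0.181 CPM in the deepest and 0.436 CPM in the shallowest of them, for counting error only. This limits the reads counted on that row, and whether the row captures the CDKN1A transcript was not tested. BAX and GADD45A were not analysed here, since no identifier of the table was matched to either symbol. The symbols of BCL2L1 and MCL1 came from the study's own lists of changed genes, so that these 2 rows could be named only because they had been called changed on these samples, while the other 4 came from a gene name table.

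The study asked whether being fed before hemorrhagic shock alters the response of the liver. Male Yorkshire-Landrace pigs, all fasted overnight, splenectomized and instrumented under anesthesia, received a blunt injury to the chest, a liver crush injury and a withdrawal of blood, followed by limited and then full resuscitation with fluid and shed blood. The 18 Fasted (FS) animals got nothing further before induction, and the 5 Carbohydrate Prefed (CPF) animals got a bolus of sugar syrup. Each animal gave a liver biopsy at Baseline (B), which was taken before shock but after instrumentation, and again at FR2, FR8 and FR20, the hours 2, 8 and 20 of full resuscitation. As labelled, 3 FS and 2 CPF animals died. No animal went without injury, so that the changes below cannot be told apart from those of time under anesthesia, surgery and repeated biopsy.

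Of the 92 libraries 88 were used, with total counts on genes of 6.88e+06 to 1.66e+07. The Baseline libraries of 3 FS animals lacked albumin, the hallmark transcript of the hepatocyte, and the FR8 library of CPF animal 3 held 4388 counts in all, so these 4 were left out and the groups hold 15, 18, 18 and 18 FS and 5, 5, 4 and 5 CPF libraries at B, FR2, FR8 and FR20. Levels are given as CPM, the count of a gene scaled to the total of its library as adjusted by TMM, and they are compared between groups, never between genes. Changes are log2 fold changes ± SE from edgeR's quasi-likelihood test within animals, with a p adjusted over all genes tested, and a gene was called at an adjusted p under 0.05. The labels gave no sequencing batch. Marker genes of several cell types also differed between timepoints. The summed level of 9 hepatocyte genes had a median in FS libraries of 216017 CPM at B, 150425 at FR2, 89816 at FR8 and 57925 at FR20, where 6 of the 9 genes fell at FR8, FGB rose and APOA1 and APOB were not called, and 6 neutrophil genes, with CSF3R at 0 in all libraries, went from 2.69 to 27.8, 18.8 and 18.96 CPM. Of these neutrophil genes S100A9 and S100A12 were named only through the study's lists of changed genes, so the sum is not independent of its calls. Among those of the gene name table, S100A8 and LCN2 rose in FS animals at FR2 and FR8. MPO was not called at either (0.26 ± 0.71 and 1.01 ± 0.59). In CPF animals the neutrophil sums were 3.80, 29.2, 31.4 and 30.9 CPM, and in both feeding groups the median sums of 6 macrophage genes and of 6 T and NK cell genes were below Baseline at each later timepoint. The single genes of these 2 lists did not all move together. In FS animals 4 of the 6 macrophage genes fell at each later timepoint, and CD68 rose at FR20 (0.41 ± 0.14). Of the 6 T and NK cell genes 1, 3 and 4 fell at FR2, FR8 and FR20, and none rose. The part of these shifts in the results on the members was not tested, and in a biopsy fewer cells of a type and less RNA per cell cannot be told apart.

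All 6 tested genes rose in FS animals at FR2 and at FR8, and 4 of them (BCL2L1, FAS, CASP8 and MDM2) were also called at FR20. Without BCL2L1 and MCL1, whose rows are not independent of the study's calls, 4 of 4 rose at FR2, 4 at FR8 and 3 at FR20 in FS animals, and 2, 3 and 1 of 4 in CPF animals. Of all genes 20.3% rose and 21.1% fell at FR2, 19.9% rose and 19.5% fell at FR8, and 17.4% rose and 16.4% fell at FR20. The members were chosen with earlier results of these data known, so their counts are not an independent test against these shares. The median log2 fold change of the 6 genes was 0.95 at FR2, 0.72 at FR8 and 0.67 at FR20, against −0.04, −0.00 and 0.04 over all genes tested. In CPF animals 4 of the 6 rose at FR2, 4 at FR8 and 1 at FR20, and none fell, where 2.00%, 6.31% and 0.278% of all genes rose and 1.40%, 6.99% and 0.615% fell. These CPF counts rest on single animals: the count at FR2 was 1 without animal 3 and 0 without animal 13 or 18, that at FR8 was 2 without animal 8 and 1 without animal 18, and that at FR20 was 0 in 4 of the 5 fits that left out 1 CPF animal. The CPF medians were 1.33, 1.07 and 0.64. The counts of calls rest on 18 FS animals, 15 of them with a Baseline library, and on 5 CPF animals, 4 of them with an FR8 library. They are not a comparison of the groups, which is given further below.

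**Figure D1:**
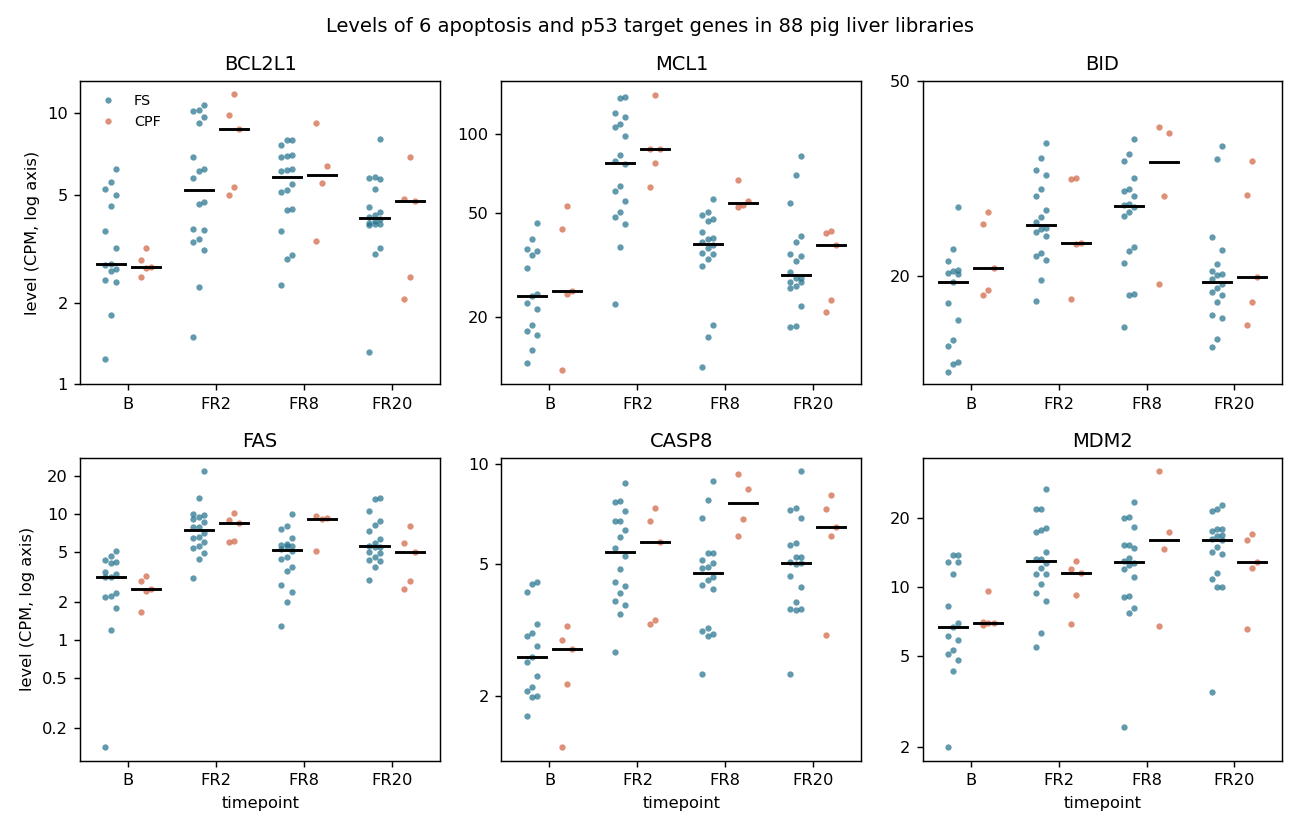
Level of each of the 6 tested genes (CPM, log axis) by timepoint, with 1 point for each of 88 libraries, FS in blue and CPF in orange, and a black line at the median of each group. MCL1 stood at a median of 24.1 CPM in FS libraries at B and 77.5 CPM at FR2, and 1 FS library at B, with a single FAS count, lies far below the others at 0.142 CPM.

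BCL2L1 encodes BCL-XL, which holds the pore-forming members of the BCL2 family in check. In FS animals its lowest, median and highest levels were 1.24, 2.79 and 6.25 CPM at B, 1.49, 5.23 and 10.7 CPM at FR2, 2.32, 5.80 and 8.00 CPM at FR8, and 1.32, 4.11 and 8.07 CPM at FR20. The groups overlapped at every timepoint, and 13 of 15 animals with a Baseline were higher at FR2, 13 at FR8 and 11 at FR20. Against B the log2 fold change was 0.84 ± 0.19 at FR2 (adjusted p = 0.000301), 0.82 ± 0.19 at FR8 (adjusted p = 0.000352) and 0.49 ± 0.19 at FR20 (adjusted p = 0.0338). The FR20 call was lost in 8 of the 18 fits that left out 1 FS animal, with an adjusted p of up to 0.0914, and with the 3 Baseline libraries without albumin kept (0.23, adjusted p = 0.422). In the 5 CPF animals (numbers 3, 7, 8, 13 and 18) BCL2L1 was at 2.87, 2.49, 3.18, 2.72 and 2.69 CPM at B and at 4.97, 8.75, 5.34, 11.8 and 9.90 CPM at FR2, so that each FR2 library lay above each Baseline library. At FR8 animals 7, 8, 13 and 18 had 3.38, 9.22, 5.51 and 6.37 CPM, again above all Baseline values. At FR20 the 5 CPF values were 4.77, 2.06, 6.89, 2.49 and 4.83 CPM, with animals 7 and 13 back below their Baselines. The change in CPF animals was 1.57 ± 0.34 at FR2 (adjusted p = 0.00700), 1.03 ± 0.36 at FR8 (adjusted p = 0.0437) and 0.53 ± 0.34 at FR20 (adjusted p = 0.447), and the call at FR8 was lost whichever CPF animal was left out (adjusted p from 0.0514 to 0.188), that at FR2 without animal 13 or 18 (up to 0.0679).

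MCL1, a short-lived protector of mitochondria that hepatocytes depend on, had the largest log2 fold change of the 6 genes in FS animals, at FR2. Its lowest, median and highest FS levels were 13.4, 24.1 and 45.7 CPM at B and 22.4, 77.5 and 138 CPM at FR2. At FR8 they were 12.98, 38.1 and 56.2 CPM and at FR20 18.4, 29.0 and 82.4 CPM. At FR2, 15 of the 18 FS libraries lay above every Baseline library, and of the 15 FS animals with all 4 libraries 14 had their highest level at FR2. The log2 fold change in FS animals was 1.61 ± 0.21 at FR2 (adjusted p = 3.37e-08), a 3.06-fold rise, then 0.51 ± 0.20 at FR8 (adjusted p = 0.0395) and 0.46 ± 0.21 at FR20 (adjusted p = 0.0859). The call at FR8 was lost in 9 of the 18 fits that left out 1 FS animal, with an adjusted p of up to 0.1004, and the log2 fold change stayed between 0.44 and 0.55. With the 3 Baseline libraries without albumin kept it was 0.19 (adjusted p = 0.550). From FR2 to FR8 MCL1 fell by 1.10 on the log2 scale (SE 0.20, adjusted p = 4.47e-05), in 17 of 18 FS animals, where 14.5% of all genes rose and 13.9% fell. From FR8 to FR20 the difference was −0.05 ± 0.20 (adjusted p = 0.923), although 14 of 18 animals were lower, and single animals ranged from −1.43 to 2.03.

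In CPF animals too MCL1 was highest at FR2, and lower at FR8 and lower again at FR20, in each of the 4 animals that had all timepoints. Animals 3, 7, 8, 13 and 18 had 12.6, 43.3, 52.8, 25.1 and 24.5 CPM at B and 62.6, 140.4, 87.7, 87.2 and 77.4 CPM at FR2, with no overlap. Animals 7, 8, 13 and 18 had 52.3, 66.3, 55.1 and 53.4 CPM at FR8, and the 5 animals had 23.3, 20.9, 42.6, 37.6 and 41.8 CPM at FR20. Both CPF animals that died, 7 and 8, had the highest Baselines and the highest FR2 levels of their group. The log2 fold change was 1.62 ± 0.37 at FR2 (adjusted p = 0.0102), 0.78 ± 0.39 at FR8 (adjusted p = 0.172) and 0.18 ± 0.37 at FR20 (adjusted p = 0.851). The FR2 call was lost without animal 3, 13 or 18, at an adjusted p of up to 0.0679.

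BID, which is cut by caspase 8 and then carries the death signal to the mitochondria, rose modestly and was back near its Baseline at FR20. In FS animals its lowest, median and highest levels were 12.8, 19.5 and 27.6 CPM at B, 17.8, 25.4 and 37.5 CPM at FR2, 15.8, 27.8 and 38.2 CPM at FR8, and 14.3, 19.5 and 36.8 CPM at FR20. The groups overlapped broadly, yet 13 of 15 animals were higher at FR2 than at B and 14 of 15 at FR8. The log2 fold change was 0.54 ± 0.12 at FR2 (adjusted p = 0.000256), 0.57 ± 0.12 at FR8 (adjusted p = 0.000110) and 0.19 ± 0.12 at FR20 (adjusted p = 0.230). From FR8 to FR20 BID fell by 0.38 on the log2 scale (SE 0.11, adjusted p = 0.0264), in 14 of 18 animals, where 3.07% of all genes rose and 3.33% fell, and the call was lost in 10 of the 18 fits that left out 1 FS animal. In CPF animals BID was at 20.8, 25.5, 18.4, 27.0 and 18.7 CPM at B and at 23.4, 31.6, 17.97, 31.8 and 23.3 CPM at FR2. At FR8 animals 7, 8, 13 and 18 had 40.4, 29.2, 19.3 and 39.2 CPM, of which only that of animal 13 lay within the Baseline range, and at FR20 the 5 animals had 17.7, 34.3, 29.2, 15.9 and 19.9 CPM. None of the changes in CPF animals was called: 0.21 ± 0.21 at FR2, 0.47 ± 0.23 at FR8 and 0.06 ± 0.21 at FR20, with adjusted p-values of 0.613, 0.163 and 0.923. Without animal 13 the FR8 change was 0.75 and was called (adjusted p = 0.0470).

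**Figure D2:**
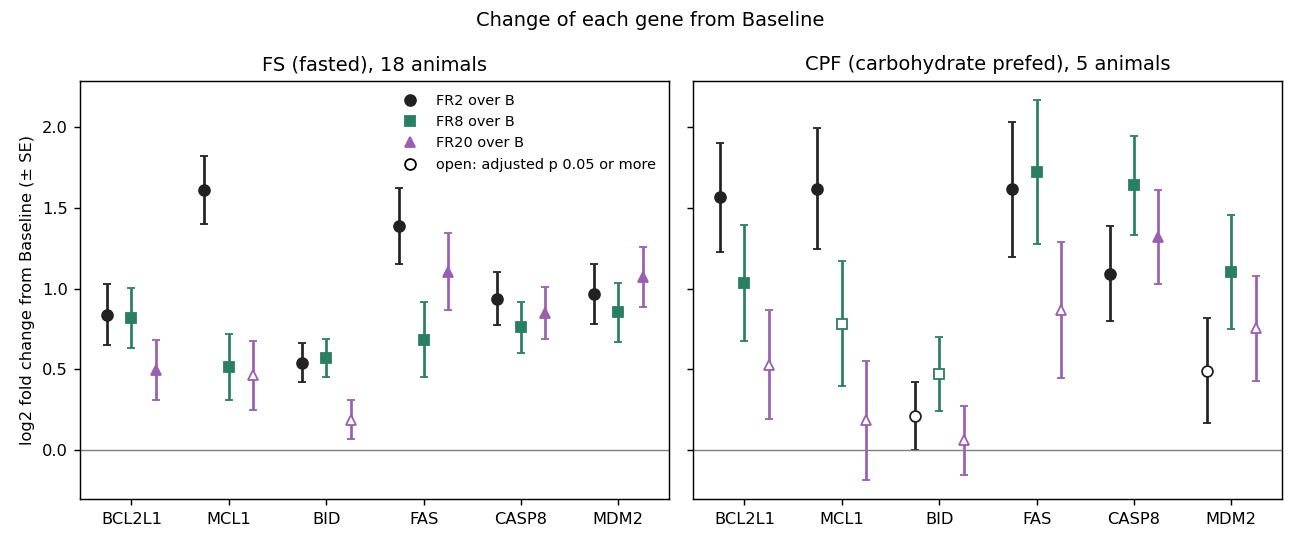
Log2 fold change from Baseline of each gene with its SE, in FS animals (left) and CPF animals (right), as circles for FR2, squares for FR8 and triangles for FR20, filled where the adjusted p was under 0.05. All estimates lie above 0, MCL1 stands at 1.61 (FS) and 1.62 (CPF) at FR2 and drops after it, and MDM2 in FS animals stays between 0.85 and 1.07.

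FAS is the receptor through which FAS ligand starts apoptosis. Its lowest, median and highest levels in FS animals were 0.142, 3.14 and 5.03 CPM at B and 3.09, 7.40 and 21.6 CPM at FR2. At FR8 they were 1.28, 5.17 and 9.96 CPM and at FR20 2.99, 5.53 and 13.3 CPM. The lowest Baseline library, of animal 2, held 1 FAS count, and the next lowest, of animal 11, had 1.20 CPM. FAS was above every Baseline library in 15 of 18 FS libraries at FR2, 10 at FR8 and 11 at FR20, and 15 of 15 animals were higher at FR20 than at B. Against B FAS changed by a log2 fold change of 1.39 ± 0.24 at FR2 (adjusted p = 4.44e-06), 0.68 ± 0.23 at FR8 (adjusted p = 0.0157) and 1.11 ± 0.24 at FR20 (adjusted p = 0.000234), and these calls held in all fits that left out 1 FS animal, with ranges of 1.248 to 1.48, 0.57 to 0.78 and 1.01 to 1.18. With the 3 Baseline libraries without albumin kept the FR8 change was 0.35 and was not called (adjusted p = 0.291). From FR2 to FR8 FAS fell by 0.71 on the log2 scale (SE 0.21, adjusted p = 0.00900), in 15 of 18 animals. From FR8 to FR20 it differed by 0.42 ± 0.21 (adjusted p = 0.239).

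In CPF animals 3, 7, 8, 13 and 18 FAS was at 3.19, 2.92, 2.53, 2.44 and 1.67 CPM at B and at 10.23, 8.51, 6.06, 5.96 and 8.89 CPM at FR2. Animals 7, 8, 13 and 18 had 5.11, 9.09, 9.19 and 9.55 CPM at FR8. Each FR2 and each FR8 library lay above each Baseline library. At FR20 the values of the 5 animals were 4.99, 2.53, 8.04, 2.96 and 5.83 CPM, and that of animal 7 was below its Baseline. The log2 fold change was 1.62 ± 0.42 at FR2 (adjusted p = 0.0211), 1.72 ± 0.45 at FR8 (adjusted p = 0.00880) and 0.87 ± 0.42 at FR20 (adjusted p = 0.287). The FR2 call was lost in 4 of the 5 fits that left out 1 CPF animal, at an adjusted p of up to 0.134, and the FR8 call only without animal 18 (adjusted p = 0.0707).

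CASP8, the protease that death receptors bring together and activate, rose at each timepoint in both feeding groups. Its lowest, median and highest FS levels were 1.74, 2.62 and 4.41 CPM at B, 2.72, 5.45 and 8.80 CPM at FR2, 2.34, 4.72 and 8.90 CPM at FR8, and 2.33, 5.05 and 9.52 CPM at FR20. CASP8 was higher than at B in 15 of 15 FS animals at FR2, 14 at FR8 and 15 at FR20, and the Baseline was the lowest of the 4 libraries in 14 of 15 animals. Its log2 fold change was 0.94 ± 0.16 at FR2 (adjusted p = 7.14e-06), 0.76 ± 0.16 at FR8 (adjusted p = 0.000131) and 0.85 ± 0.16 at FR20 (adjusted p = 4.14e-05), and no call was lost in a fit that left out 1 FS animal. In CPF animals CASP8 was at 2.77, 3.27, 1.40, 2.17 and 2.95 CPM at B and at 5.83, 3.31, 3.39, 6.73 and 7.39 CPM at FR2, where the lowest FR2 library was only just above the highest Baseline. At FR8 animals 7, 8, 13 and 18 had 8.40, 6.86, 6.07 and 9.35 CPM, well clear of the Baselines, and at FR20 the 5 animals had 6.47, 6.10, 8.11, 3.048 and 7.34 CPM. Here the log2 fold change was 1.09 ± 0.29 at FR2 (adjusted p = 0.0244), 1.64 ± 0.31 at FR8 (adjusted p = 0.00113) and 1.32 ± 0.29 at FR20 (adjusted p = 0.0180). The FR8 call held whichever CPF animal was left out (1.49 to 1.72), while that at FR2 was lost in 3 and that at FR20 in 4 of the 5 fits.

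MDM2, the ubiquitin ligase that marks p53 for destruction and is itself switched on by p53, was called as higher at each timepoint in FS animals. Its lowest, median and highest FS levels were 1.99, 6.64 and 13.8 CPM at B, 5.44, 12.97 and 26.7 CPM at FR2, 2.44, 12.8 and 23.5 CPM at FR8, and 3.48, 16.1 and 22.9 CPM at FR20. It was higher than at B in 15 of 15 animals at FR2, 14 at FR8 and 15 at FR20, and 13 of the 18 FR20 libraries lay above every Baseline library. Its log2 fold change was 0.97 ± 0.19 at FR2 (adjusted p = 3.44e-05), 0.85 ± 0.18 at FR8 (adjusted p = 0.000152) and 1.07 ± 0.18 at FR20 (adjusted p = 6.94e-06). These calls held without any single FS animal, but they rest on leaving out the 3 Baseline libraries without albumin, which held MDM2 at high levels. With those kept the changes were 0.37, 0.36 and 0.55 and none was called (adjusted p = 0.230, 0.264 and 0.0813). In CPF animals MDM2 was at 6.92, 6.96, 9.55, 6.79 and 7.05 CPM at B and at 9.18, 11.5, 13.04, 11.9 and 6.89 CPM at FR2. At FR8 animals 7, 8, 13 and 18 had 6.76, 17.4, 32.0 and 14.7 CPM, the widest spread on the log2 scale of the 6 genes in that group, and at FR20 the 5 animals had 12.8, 6.57, 16.02, 12.1 and 17.1 CPM. Animal 7 was below its Baseline at FR8 and FR20, and the others were above. The log2 fold change was 0.49 ± 0.33 at FR2 (adjusted p = 0.408), 1.10 ± 0.35 at FR8 (adjusted p = 0.0287) and 0.75 ± 0.33 at FR20 (adjusted p = 0.229), and the FR8 call was lost without animal 8 (1.17, adjusted p = 0.0666), 13 (0.66, adjusted p = 0.297) or 18 (1.11, adjusted p = 0.0940).

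**Figure D3:**
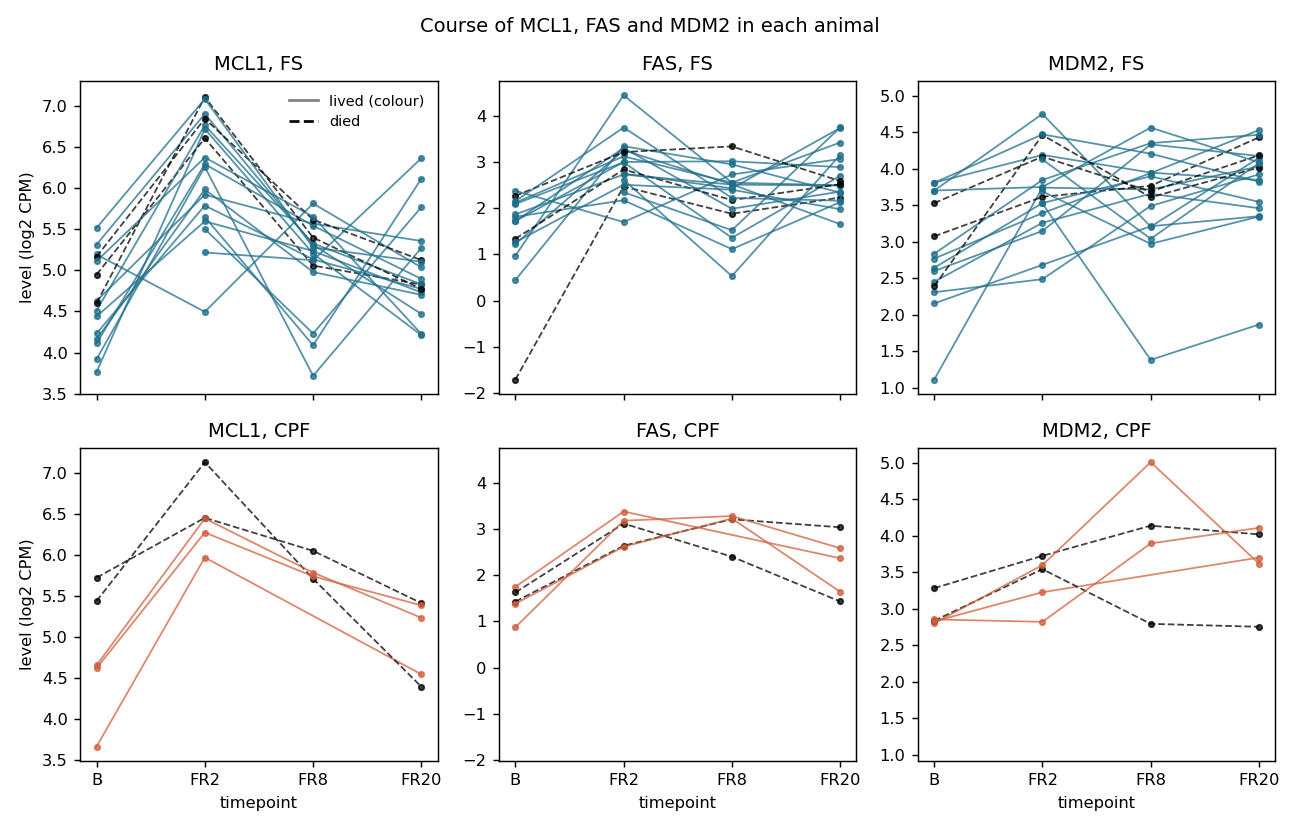
Level (log2 CPM) of MCL1, FAS and MDM2 in each animal across the timepoints, FS above and CPF below, with 1 line for each animal and black dashed lines for animals that died. Lines begin at FR2 where the Baseline was left out and skip FR8 in CPF animal 3. MCL1 peaks at FR2 in 14 of 15 FS and in 4 of 4 CPF animals with all 4 libraries, and the FAS line that starts lowest is that of FS animal 2.

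By counts of animals, the timepoint of the highest level was not the same for all 6 genes. Their courses were not tested against each other. Of the 15 FS animals with all 4 libraries, MCL1 peaked at FR2 in 14 and FAS in 12, BID peaked at FR8 in 10 and BCL2L1 in 8, MDM2 peaked at FR20 in 7, and CASP8 peaked at each of FR2, FR8 and FR20 in 5. Over all 88 libraries the Pearson correlation of log2 CPM between pairs of the genes ran from −0.02 (BID and MDM2) to 0.61 (BID and CASP8, and FAS and CASP8). These correlations describe libraries that share animals, timepoints and scaling. In the order of the 8 groups by mean log2 CPM, the gap between neighbours was larger than the larger of their SDs in 3 of 42 places: between FS FR8 and CPF FR8 for MCL1, between FS B and FS FR8 for CASP8, and between CPF B and CPF FR2 for MDM2. FS or CPF animals at Baseline were the lowest group for each of the 6 genes. The highest group was CPF at FR2 for BCL2L1 and MCL1 and CPF at FR8 for BID, FAS, CASP8 and MDM2.

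Whether the fed state altered these changes was tested as an interaction, the CPF change minus the FS change. edgeR's quasi-likelihood test called 0 of the 6 genes at FR2, FR8 and FR20, as did its likelihood ratio test and DESeq2, and 0% of all 13667 genes were called, with 397, 468 and 521 at an unadjusted p under 0.05. Of the 6 genes 0, 2 and 0 had an unadjusted p under 0.05. Both were death receptor genes at FR8, where CASP8 rose by 0.88 ± 0.35 more in CPF animals (95% interval 0.20 to 1.56, p = 0.0134) and FAS by 1.04 ± 0.50 more (0.06 to 2.02, p = 0.0418), each with an adjusted p of 0.999. At FR2 the interval of the difference was −0.02 to 1.48 for BCL2L1, −0.81 to 0.15 for BID and −1.21 to 0.26 for MDM2. With 5 CPF animals these intervals include differences as large as the FS changes of these genes (0.84, 0.54 and 0.97). The interval was −0.82 to 0.83 for MCL1, −0.70 to 1.16 for FAS and −0.50 to 0.81 for CASP8. These do not reach the size of the FS changes (1.61, 1.39 and 0.94), but smaller differences remain possible.

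The levels of CPF and FS animals were also compared at each timepoint. None of the 6 genes was called at B, FR2, FR8 or FR20 by edgeR's quasi-likelihood test, its likelihood ratio test or DESeq2, against 0.0342% of all genes at B and 0% at the later timepoints (895, 664, 618 and 400 genes at an unadjusted p under 0.05). At FR8 an unadjusted p under 0.05 was reached by 3 of the 6. CASP8 was at 6.07 to 9.35 CPM in 4 CPF and 2.34 to 8.90 CPM in 18 FS libraries, a log2 difference of 0.66 ± 0.25 (p = 0.0139, adjusted p = 0.925). MCL1 was at 52.3 to 66.3 CPM in CPF and 12.98 to 56.2 CPM in FS libraries, a difference of 0.62 ± 0.24 (p = 0.0192, adjusted p = 0.955). FAS differed by 0.73 ± 0.33 (p = 0.0383, adjusted p = 0.955). The ranges of the feeding groups overlapped for all 3.

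Animals that died (3 FS and 2 CPF) were compared with those that lived at each timepoint, with a term for the fed state. None of the 6 genes was called by the quasi-likelihood test, its likelihood ratio test or DESeq2, and 0% of all genes were called at B, FR2, FR8 or FR20, with 998, 656, 265 and 642 genes at an unadjusted p under 0.05. MCL1 had an unadjusted p under 0.05 at 2 timepoints. At B its lowest, median and highest levels were 24.1, 35.8 and 52.8 CPM in animals that died and 12.6, 22.6 and 45.7 CPM in those that lived, a log2 difference of 0.59 ± 0.28 (p = 0.0430, adjusted p = 0.562). At FR2 they were 87.7, 115 and 140.4 CPM against 22.4, 69.9 and 136 CPM, a difference of 0.66 ± 0.28 (p = 0.0260, adjusted p = 0.855). The ranges overlapped at both timepoints. At FR8 and FR20 the difference in MCL1 was 0.18 ± 0.25 and −0.24 ± 0.30.

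The members were set beside 66 other genes of the same routes, of which 35 were identified through the gene name table and tested. In FS animals 11 of these rose and 8 fell at FR2, 6 rose and 14 fell at FR8, and 4 rose and 13 fell at FR20. The median log2 fold change of the 35 was −0.08, −0.11 and −0.12. Over all genes tested 20.3% rose and 21.1% fell at FR2, 19.9% rose and 19.5% fell at FR8, and 17.4% rose and 16.4% fell at FR20. In CPF animals 3 rose and 1 fell at FR2, 2 rose and 3 fell at FR8, and 0 of the 35 were called at FR20. There 2.00%, 6.31% and 0.278% of all genes rose and 1.40%, 6.99% and 0.615% fell at FR2, FR8 and FR20.

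The other death receptor genes moved with FAS and CASP8 in direction at FR2. In FS animals 5 of 5 tested genes named by the gene name table rose, where 20.3% of all genes rose, with a median log2 fold change of 0.93: CASP10, a close relative of caspase 8, by 1.41 ± 0.24, the receptor TNFRSF21 by 1.38 ± 0.22, the kinase RIPK1 by 0.93 ± 0.16, the tumor necrosis factor receptor TNFRSF1A by 0.78 ± 0.12, and CFLAR, the inhibitor of caspase 8 at the receptor, by 0.46 ± 0.16. Not in this count are TNFRSF10A and TNFRSF10B, named only through the study's lists of changed genes. Neither was called in FS animals at FR2 (0.85 ± 0.58, adjusted p = 0.243, and 0.66 ± 0.32, adjusted p = 0.0951). Later CFLAR fell below Baseline, by 0.57 at FR8 (SE 0.16, adjusted p = 0.00380) and by 0.44 at FR20 (SE 0.16, adjusted p = 0.0283), while 4 of the others at FR8 and 3 at FR20 were called as higher. In CPF animals CASP10 (1.94 ± 0.45), TNFRSF21 (1.70 ± 0.40) and TNFRSF1A (0.77 ± 0.21) rose at FR2, and CASP10 (1.46 ± 0.47, adjusted p = 0.0308) and TNFRSF1A (0.62 ± 0.22, adjusted p = 0.0492) at FR8. For the wider lists, fits without single CPF animals are not given here. The neutrophil sum given above was also higher in median at each of these timepoints in both feeding groups, and its part in the changes of FAS, CASP8 and this list was not tested.

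Among the other members of the BCL2 family most of the pro-apoptotic genes fell in FS animals, whereas the pro-apoptotic member BID and the protectors BCL2L1 and MCL1 rose at FR2 and FR8. The rows of BCL2L1 and MCL1 are not independent of the study's calls, so their side of this contrast is not either. Of 5 pro-apoptotic genes tested, 3 fell and 1 rose at FR2, 4 fell at FR8 and 4 fell at FR20. Over all genes 20.3% rose and 21.1% fell at FR2, 19.5% fell at FR8 and 16.4% fell at FR20. BBC3, which encodes the p53 target PUMA, fell from a median of 5.60 CPM at B to 2.73, 2.30 and 2.62 CPM, a log2 fold change of −1.03 ± 0.32, −1.42 ± 0.31 and −1.19 ± 0.31. In CPF animals BBC3 fell by 1.77 on the log2 scale at FR8 (SE 0.61, adjusted p = 0.0430). BAD differed by −0.59, −0.57 and −0.65 and BNIP3L by −0.60, −0.93 and −0.51 in FS animals, all called, and BAK1, which forms the pore itself, rose by 0.30 ± 0.12 at FR2. The single other protector identified, BCL2L2, was at a median of 49.0 CPM at B and 90.8 CPM at FR8 and rose by 0.76 ± 0.17. BCL2L11, whose symbol came only from the study's lists of changed genes and whose direction is therefore not independent, fell by 1.70 on the log2 scale at FR8 (SE 0.61).

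Downstream of these, few of the caspase and apoptosome genes were called. Of 5 tested in FS animals CYCS, which encodes cytochrome c, rose at FR2, from a median of 148 CPM to 365 CPM (1.21 ± 0.26), and CASP2 rose at FR20 (0.37 ± 0.14). Of 3 genes for inhibitors of apoptosis and their antagonists, DIABLO fell at FR2 (−0.34 ± 0.07) and the others were not called. Over all genes 20.3% rose and 21.1% fell at FR2, and 17.4% rose and 16.4% fell at FR20.

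MDM2 was called as higher at each timepoint in FS animals, while the called genes of the wider p53 list were evenly split at FR2 and mostly fell at FR8 and FR20. Of 16 tested in FS animals 4 rose and 4 fell at FR2, 1 rose and 9 fell at FR8, and 0 rose and 8 fell at FR20, with median log2 fold changes of −0.08, −0.55 and −0.42. Over all genes 20.3% rose and 21.1% fell at FR2, so the split of this list at FR2 is near that of all genes. At FR8 19.9% of all genes rose and 19.5% fell, and at FR20 17.4% rose and 16.4% fell. SESN2, a stress-induced inhibitor of mTOR signaling, went from a median of 58.8 CPM at B to 16.7, 10.7 and 17.4 CPM, a log2 fold change of −1.89 ± 0.32, −2.53 ± 0.34 and −2.19 ± 0.32. GADD45B, a relative of GADD45A, was at a median of 108 CPM at B and 145 CPM at FR2, where it was not called (−0.09 ± 0.46, adjusted p = 0.893). Its median was then 20.1 CPM at FR8 (−2.62 ± 0.52) and 9.66 CPM at FR20 (−3.11 ± 0.54). TP53I3 rose at FR8 (2.21 ± 0.60) from a median of 0.315 CPM to 1.39 CPM, and AEN (1.09 ± 0.22) and PLK3 (1.06 ± 0.27) at FR2. In the libraries used, 3 counts make 0.181 to 0.436 CPM of the library's own total. The Baseline medians of TP53I3 and, below, of SFN lay in or under this range, so their fold changes start from few reads. AEN, PLK3, TNFRSF21 and RIPK1 were named after their values were seen. In CPF animals DDB2, which recognizes damaged DNA, fell by 1.12 on the log2 scale at FR2 (SE 0.31), and POLH by 1.70 (SE 0.54) and GADD45B by 3.09 (SE 0.98) at FR8. Both DDB2 at FR2 (−1.37 ± 0.17) and POLH at FR8 (−1.41 ± 0.29) were called as lower in FS animals too. A further 2 genes were named only through the study's lists of changed genes: TP53INP1 fell at FR8 by 2.84 in FS (SE 0.39) and by 3.69 in CPF animals (SE 0.75), and SFN, called as higher in FS animals, went from at most 0.236 CPM at B to a median of 0.621 CPM and up to 14.03 CPM at FR20, and was called as higher in CPF animals at FR20 as well (adjusted p = 0.0274), at a median of 0.0859 CPM at B and 5.33 CPM at FR20.

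**Figure D4:**
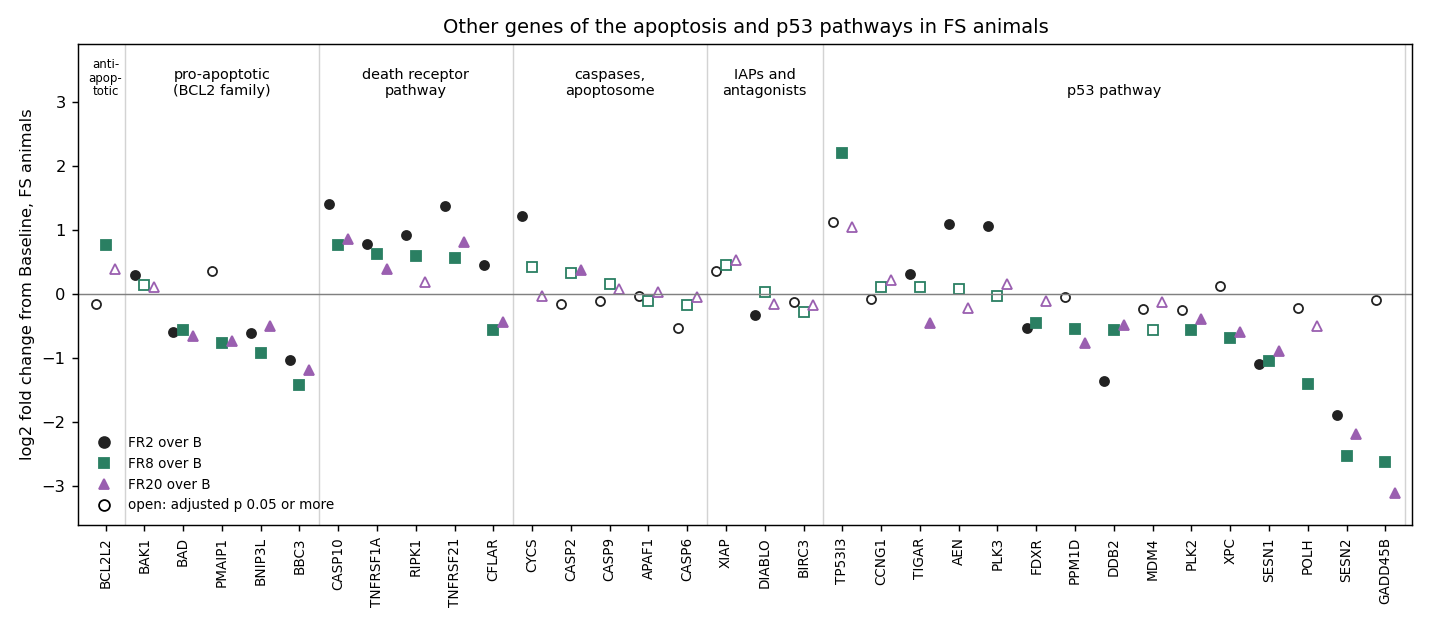
Log2 fold change from Baseline in FS animals of 34 of the 35 other tested genes, grouped by their place in the apoptosis and p53 routes, as circles for FR2, squares for FR8 and triangles for FR20, filled where the adjusted p was under 0.05. The 5 death receptor genes drawn lie above 0 at FR2, from 0.46 to 1.41, and SESN2 and GADD45B lie lowest at FR8, at −2.53 and −2.62.

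The genes most like each member over the 88 libraries were searched among 8142 genes with a symbol and a mean of at least 1 CPM, by Pearson's correlation of log2 CPM. For MCL1 these were CSNK1A1 (0.88) and KLHL12 (0.87), and for MDM2 WDR48 and TMOD3 (both 0.87). For BID they were ARPC5L (0.82) and CFL1 (0.81), and for BCL2L1 MYH9 (0.80) and PEA15 (0.73). CASP8 was closest to UNC5CL (0.77) and S100A10 (0.76), and FAS to IL1R2 (0.68) and CLDN4 (0.68). No member was among these closest 2 genes of another. The values describe these libraries, which share animals and timepoints.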

How the data were processed

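Liver biopsies of 23 pigs were profiled by poly(A)-selected RNA-seq. Per the labels and the study's methods the authors called bases with CASAVA 1.8.2, aligned single reads with TopHat 1.5.0 to Sscrofa10.2, and counted reads per Ensembl gene with HTSeq. Strand and counting mode are not given in the sources used here, so reads of overlapping or antisense genes cannot be told apart, nor can reads that near-identical copies of a gene might share. The deposited counts are raw whole-number counts of reads in 1 table of 92 libraries.

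Symbols were matched through a gene name table (11804 of 25322 identifiers) and then, for identity only, through the study's tables of changed genes. Members and lists were chosen with earlier results of these data known. Fold changes and p-values in the study's tables were not used. No coordinates or sequences are printed, since no genome of that build was given.

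Libraries were scaled by TMM, genes with summed CPM of at least 10 were kept, and edgeR 4.0.16 (R 4.3.3) was used with its quasi-likelihood F test, two-sided, with Benjamini-Hochberg adjustment. Changes came from 1 fit of 88 libraries, in which every animal had its own term, with FR2, FR8 and FR20 terms for each feeding group, as the study's methods used subject terms. The study also required a log2 fold change of 1, which is an alternative here. CPF was compared with FS, and died with lived, in 1 fit per timepoint, and the lived and died groups were adjusted for the fed state. The SE is the log2 fold change divided by the square root of F, and its 95% interval is approximate. Within-animal counts used log2 CPM with a prior count of 2. The animal numbers pair the libraries, since libraries of 1 number come from 1 animal. Deviations from the group means correlated with a median of 0.21 for the same animal (94 of 126 pairs over 0.1) and −0.02 for different animals (543 of 2391). Library totals were 6.88e+06 to 1.66e+07 counts, median 1.21e+07, and counts per library were 12 to 172 for BCL2L1, 74 to 1652 for MCL1, 93 to 503 for BID, 1 to 211 for FAS, 14 to 155 for CASP8 and 11 to 452 for MDM2. No 2 libraries held identical values. The fits were tested on simulated counts drawn without differences between animals, so that test does not cover the animal terms.

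All members are named. In each wider list the called genes with the highest and lowest change were named, with further genes marked as chosen after their values were seen. The results of 2 genes of the wider lists are not reported here, and counts over those lists use every tested gene named by the gene name table. Alternatives were RLE size factors, edgeR's filterByExpr, no filter beyond 1 count, the likelihood ratio test, DESeq2 1.42.0, the study's fold criterion, no animal terms, the 3 libraries without albumin kept, each feeding group fitted alone, and leaving out each animal in turn.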

Additional observations from a re-analysis of the deposited data

Results flagged for a closer look

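In groups of 4 to 10 libraries, 24 sets of values of 1 gene were examined for a library far from the rest, and chance alone marks about 1 in 20. FAS in CPF animals at FR8 was lowest in animal 7, at 5.11 CPM, against 9.09 to 9.55 CPM in the other 3. MDM2 in CPF animals at Baseline was highest in animal 8, at 9.55 CPM, against 6.79 to 7.05 CPM in the other 4. Both animals are labelled as having died.

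The Baseline libraries of FS animals 17, 19 and 21 were not used in the comparisons, since albumin was at 0.197 to 52.7 CPM of their own totals, against 59451 to 144147 CPM in the 15 Baseline libraries used. On the same scale they held 3 members above every FS Baseline library used. MCL1 was at 82.7 to 161 CPM against at most 44.6 CPM, FAS at 11.1 to 15.1 CPM against at most 5.20 CPM, and MDM2 at 25.7 to 36.5 CPM against at most 14.3 CPM. BCL2L1, BID and CASP8 did not lie above the range of the libraries used in all 3 of them. The labels call these libraries liver.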

How the results depend on the processing

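Of 576 values of single genes recomputed under the alternatives, 529 kept their direction and their side of the threshold, 33 lost and 2 gained the call, and 12 turned in sign, all 12 in comparisons that were not called. RLE size factors, filterByExpr, the likelihood ratio test and DESeq2 each left all 54 values they gave on the same side. With the study's added criterion of a log2 fold change of 1, the FS counts of members called were 2 at FR2, 0 at FR8, 2 at FR20, 1 from FR2 to FR8 and 0 from FR8 to FR20. With the 3 libraries without albumin kept, 3 members were called in FS animals at FR8, 2 at FR20 and 0 from FR8 to FR20, and 2 at FR8 and 0 at FR20 in CPF animals. The calls lost there included MDM2 at all 3 timepoints and FAS at FR8 (0.35, adjusted p = 0.291) in FS animals. Without the animal terms that pair the libraries (no replicate block), 0 members were called in CPF animals at FR20, where CASP8 had a log2 fold change of 1.30 and an adjusted p of 0.0547. The FS calls of MCL1 at FR8 (0.48, adjusted p = 0.0584) and BCL2L1 at FR20 (0.34, adjusted p = 0.234) and the CPF call of BCL2L1 at FR8 (1.13, adjusted p = 0.0556) were lost as well. With each feeding group fitted alone MCL1 at FR8 had an adjusted p of 0.0606 in FS and 0.0495 in CPF animals, and BCL2L1 at FR8 in CPF animals 0.0554. With no filter beyond 1 count, 0 members were called from FR8 to FR20, where BID lost its call (−0.35, adjusted p = 0.0582), as did MCL1 in FS (0.50, adjusted p = 0.0588) and BCL2L1 in CPF animals (1.01, adjusted p = 0.0650) at FR8. The cause was not tested.

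Leaving out 1 animal at a time gave 6 to 6 members called in FS animals at FR2, 5 to 6 at FR8, 3 to 4 at FR20, 2 to 2 from FR2 to FR8 and 0 to 1 from FR8 to FR20. In CPF animals it gave 0 to 4 at FR2, with 0 without animal 13 or 18 and 1 without animal 3, then 1 to 3 at FR8, with 1 without animal 18 and 2 without animal 8, and 0 to 1 at FR20. Signs turned for BID in CPF animals at FR20 (−0.14 to 0.27) and, in FS animals from FR2 to FR8, for BCL2L1 (−0.095 to 0.064), BID (−0.0025 to 0.080) and MDM2 (−0.19 to 0.0068). They also turned for MCL1 from FR8 to FR20 (−0.18 to 0.024) and in CPF over FS at FR8 for BCL2L1 (−0.13 to 0.34) and MDM2 (−0.030 to 0.68). With the 3 libraries without albumin kept BCL2L1 differed by 0.012 from FR2 to FR8. In an alternative chosen after seeing the data, without the 3 animals of those libraries at any timepoint, the difference from FR2 to FR8 was 0.12 for BCL2L1, 0.033 for CASP8 and 0.13 for MDM2, and that from FR8 to FR20 was −0.093 for CASP8. Interactions and CPF over FS were refitted only without CPF animals, FS steps only without FS animals, and died over lived only without animals that died.

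Depth limits FAS, CASP8 and BCL2L1 most, with medians of 68.5, 58 and 58.5 counts per library. The 5 CPF animals limit every comparison of feeding groups.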

Other observations

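The part of the other marker lists in the results on the members was not tested. In FS libraries the medians at B, FR2, FR8 and FR20 were 1573, 1178, 1078 and 1057 CPM for 6 macrophage genes, 32.8, 30.2, 30.0 and 27.6 CPM for 6 T and NK cell genes, and 201, 206, 217 and 231 CPM for 5 endothelial genes. They were 256, 245, 121 and 110 CPM for 3 erythroid genes and 19.7, 28.6, 19.4 and 18.1 CPM for 3 biliary genes. The median of 7 striated muscle genes was below 0.20 CPM in each FS group, although single FS libraries reached 51.3, 138, 94.2 and 77.0 CPM. In CPF libraries the median of the endothelial genes was 188 CPM at B and 307 CPM at FR8. VWF of the endothelial genes and MYH1, MYH2 and MYH7 of the muscle genes were named only through the study's lists of changed genes.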
